A study of Mus musculus with 6 samples.

Results

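The 48 genes described here act in the last phase of the cell cycle, when a cell enters mitosis, condenses its chromosomes, builds a spindle and divides. They were taken from the count table by gene name, as a list of mitotic kinases and cyclins, checkpoint and kinetochore proteins, kinesins, cytokinesis proteins, condensin subunits and the markers Mki67 and Top2a. All 48 were found among the 54532 genes of the table. Of these, 45 had 10 or more counts in at least 3 of the 6 libraries, and the same 45 were among the 14801 genes tested. The libraries came from Gli1-CreERT2; tdTomato mice on a C57BL/6 background, 1 month old, taken 24 h after tamoxifen (TAM). In these mice a CreERT2 recombinase made from the Gli1 locus turns on the red protein tdTomato once TAM is given, so the colour marks cells in which the locus was active at that time. All cells were sorted as CD45- CD31- Ter119-, which sets aside leukocytes, endothelial cells and red blood cells, and then as tdTomato+ (Gli1+ cells, 3 libraries) or tdTomato- (Gli1- cells, 3 libraries). Both populations carried the same alleles, received TAM and came from the same mice. The study's text gives costal cartilage as the source, whereas the labels give the growth plate, and neither says whether a library held 1 mouse or a pool.

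Most of these genes are silent or nearly so in resting cells and are transcribed in a burst between S phase and mitosis. The kinase Cdk1, bound to cyclin A or B, starts mitosis. Condensins then compact the chromosomes, kinetochores tie them to the spindle, the checkpoint holds the cell until all are attached, and the anaphase-promoting complex releases the sister chromatids. In growth cartilage, dividing chondrocytes are found mainly in the columns of the proliferative zone, while resting and hypertrophic chondrocytes divide little. The mRNA of a sorted bulk population counts dividing cells and their transcripts together, so more cells in mitosis and more mitotic mRNA per cell cannot be told apart.

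The 6 libraries held 17114101 to 18602482 counts each. Gli1 itself, the gene whose locus drives the sort, was at 4.55, 6.39 and 7.98 CPM (counts divided by the library's total, scaled by TMM) in Gli1+ replicates 1, 2 and 3 and at 0.724, 1.26 and 2.43 CPM in Gli1- replicates 1, 2 and 3. Of the 6 libraries, 3 are followed through the results. Gli1+ replicate 1 had counts on 15000 genes against 20666 to 23360 in the others. Gli1+ replicate 2 had the highest mitotic levels. Gli1- replicate 1 had summed levels of 2910 CPM over 6 neutrophil markers, 620 CPM over 9 neutrophil precursor markers and 784 CPM over 7 macrophage markers, against at most 61.8, 17.3 and 161 CPM in any other library. The summed level of the 48 mitotic genes was lowest in that same library. Chondrocyte markers (10 of 10 in the table, Col2a1 and Acan among them) summed to 8450 to 19500 CPM in Gli1+ cells and 7760 to 29500 CPM in Gli1- cells. Of the 10, 4 had a log2FC above 0, with a median of -0.07. Among them Chad lay without overlap at 495 to 1280 CPM in Gli1+ cells against 1750 to 5190 CPM in Gli1- cells (log2FC -1.83, SE 0.63). Of 8 fibroblast markers, 1 had a log2FC above 0 in Gli1+ cells, with a median of -1.27. Their sums were 1650 to 3910 CPM in Gli1+ cells and 2150 to 9630 CPM in Gli1- cells. Replicate 2 held the highest chondrocyte and fibroblast sums in each population. Pdgfra lay without overlap at 43.1 to 85.4 CPM against 206 to 355 CPM (log2FC -1.97, SE 0.46). Endothelial sums did not overlap either, at 2.03 to 2.96 CPM in Gli1+ cells and 3.33 to 13.0 CPM in Gli1- cells. Lymphocyte markers (52.4 to 221 CPM over the 6 libraries), erythroid markers (0 to 5.65 against 0.741 to 20.6 CPM) and skeletal muscle markers (1.06 to 35.2 against 3.54 to 23.9 CPM) overlapped. The part of these cells in the mitotic values was not tested.

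Most of the promoters that could be read held letters that the choice of genes had not used. Genes of late cell cycle are known for a short element near the start of transcription, the cell cycle genes homology region (CHR), usually written TTTGAA, which is bound by the MuvB core of the DREAM complex, and for CCAAT boxes bound by NF-Y. RefSeq windows of 300 bases, from 250 before to 50 after the start (GRCm38.p6), were held for 39 of the 48. Aurkb, Ccna2, Cdc25c, Dlgap5, Foxm1, Incenp, Kif20a, Smc4 and Tpx2 had none in the table used. TTTGAA, searched on both strands, was in 30 of the 39 windows (76.9%), against 11.6% of the 10509 windows of genes tested and 18.1% of all 27025 windows. Within 100 bases before and 50 after the start it was in 27 of 39 (69.2%), against 4.15% of windows of genes tested and 8.08% of all windows. CCAAT, on both strands, was in 30 windows (76.9%, against 38.5% and 37.9%), and 20 windows (51.3%) held 2 or more, against 14.6% and 12.2%. Both motifs stood together in 26 windows (66.7%), against 4.85% and 7.12%. The variant TTCGAA was in 3 windows (7.69%, against 2.07% and 1.57%). A match is a string of letters and not a shown binding site.

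**Figure D1:**
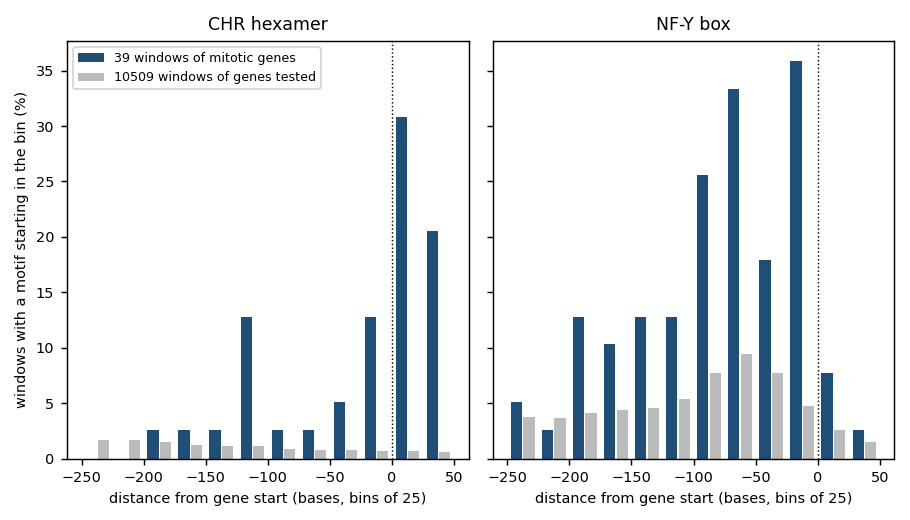
Percent of promoter windows with a motif starting in each 25-base bin (y axis) against distance from the gene start in bases (x axis), for the CHR hexamer (left) and the NF-Y box (right). Blue bars are the 39 windows of mitotic genes and grey bars the 10509 windows of genes tested. The CHR letters start in the first 25 bases after the start in 30.8% of mitotic windows and 0.714% of windows of genes tested, and the NF-Y box starts most often in the 25 bases before the start (35.9% against 4.76%).

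5 windows are shown, each 5′ to 3′ on the gene's strand, with the CHR letters and the CCAAT boxes, read on either strand, in capitals. Plk1 and Cdca8 had 0 counts in Gli1+ replicate 1, while Cenpf and Aspm were highest in that library, and Mki67 had the smallest unadjusted p of the group.
Plk1 (chr7:122159185-122159484, plus strand): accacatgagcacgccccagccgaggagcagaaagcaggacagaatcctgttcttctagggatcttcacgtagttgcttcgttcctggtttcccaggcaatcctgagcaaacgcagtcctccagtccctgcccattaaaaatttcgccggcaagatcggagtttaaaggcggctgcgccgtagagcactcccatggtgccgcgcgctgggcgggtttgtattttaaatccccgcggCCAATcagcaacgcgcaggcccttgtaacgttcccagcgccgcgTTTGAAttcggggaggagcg
Cdca8 (chr4:124936868-124937167, minus strand): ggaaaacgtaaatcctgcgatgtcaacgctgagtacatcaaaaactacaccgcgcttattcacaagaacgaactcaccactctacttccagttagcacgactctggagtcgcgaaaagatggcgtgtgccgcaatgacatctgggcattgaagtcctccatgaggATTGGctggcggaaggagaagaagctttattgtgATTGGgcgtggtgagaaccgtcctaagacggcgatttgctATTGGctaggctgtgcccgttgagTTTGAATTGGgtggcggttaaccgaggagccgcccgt
Cenpf (chr1:189688037-189688336, minus strand): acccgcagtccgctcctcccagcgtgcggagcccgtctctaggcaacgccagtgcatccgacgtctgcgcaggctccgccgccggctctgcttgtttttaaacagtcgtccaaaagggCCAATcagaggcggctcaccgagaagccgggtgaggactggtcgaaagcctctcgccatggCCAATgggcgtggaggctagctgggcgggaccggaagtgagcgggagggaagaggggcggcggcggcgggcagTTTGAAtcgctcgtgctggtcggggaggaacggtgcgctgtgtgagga
Aspm (chr1:139454523-139454822, plus strand): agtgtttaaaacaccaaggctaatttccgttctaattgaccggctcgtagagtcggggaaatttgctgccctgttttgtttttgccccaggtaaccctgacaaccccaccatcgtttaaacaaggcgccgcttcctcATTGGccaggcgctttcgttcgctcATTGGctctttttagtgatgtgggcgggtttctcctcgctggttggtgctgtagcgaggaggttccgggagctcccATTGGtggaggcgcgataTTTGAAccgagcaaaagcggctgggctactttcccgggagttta
Mki67 (chr7:135716330-135716629, minus strand): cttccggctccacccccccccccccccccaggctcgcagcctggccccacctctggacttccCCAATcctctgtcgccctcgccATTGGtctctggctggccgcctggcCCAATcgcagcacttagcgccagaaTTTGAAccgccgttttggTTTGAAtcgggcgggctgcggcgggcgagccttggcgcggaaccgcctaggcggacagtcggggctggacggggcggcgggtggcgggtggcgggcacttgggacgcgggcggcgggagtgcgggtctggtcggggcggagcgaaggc
The CHR letters began 30 bases after the start in Plk1, 13 after in Cdca8, 2 after in Cenpf and 6 after in Aspm. In Cdca8 they overlapped a CCAAT box on the other strand, the only such overlap in the 39 windows. Mki67 had its CHR letters upstream, at positions -116 and -98 from the start. Over all genes with a window, both motifs stood in 3 of 4 genes at 0 counts in Gli1+ replicate 1 (Bub1 lacked TTTGAA) and in 6 of 8 genes highest there (Cenpe lacked TTTGAA and Kif20b lacked CCAAT). Over the 39 windows, the 29 tested genes with TTTGAA had a median log2FC of 1.68 and the 8 without it 1.20. With CCAAT the median was 1.60 over 28 genes and without it 1.51 over 9. These medians are descriptions of overlapping ranges.

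The question of the comparison was how Gli1+ cells differ from Gli1- cells of the same mice. The fitted values of most mitotic genes lay on the Gli1+ side, but edgeR called none of them at the study's thresholds for a differentially expressed gene, while DESeq2 called Mki67. Of the 45 genes tested, 44 had a fitted log2FC above 0 in Gli1+ cells (50.1% of all genes tested did), and the exception was Pttg1 at -0.16. The median log2FC was 1.46, against 0.001 over all genes tested, and 28 of 45 were over 1, against 7.28% of all genes. The call asked for a |log2FC| over 1 with an adjusted p under 0.05. By edgeR's quasi-likelihood test 0 of the 45 met it, as did 0.0% of all genes, and every adjusted p of the group was 0.9999. At an unadjusted p under 0.05 there were 9, all higher in Gli1+ cells, against 1.43% of all genes higher and 2.04% lower. These were Mki67, Cenpe, Smc2, Aspm, Kif4, Kif20b, Tpx2, Ccna2 and Top2a. Cenpe passed the filter only through its Gli1+ libraries, and Kif4 largely so, with Gli1- counts of 5, 11 and 8. Leaving out Gli1+ replicate 2 took the median to 0.46, with 28 of 45 genes above 0 and 5 at an unadjusted p under 0.05. Without Gli1+ replicate 1 the median was 1.54, with 47 of 47 genes above 0, and without Gli1- replicate 1, the library with leukocyte transcripts, it was 1.16, with 45 of 48 above 0.

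**Figure D2:**
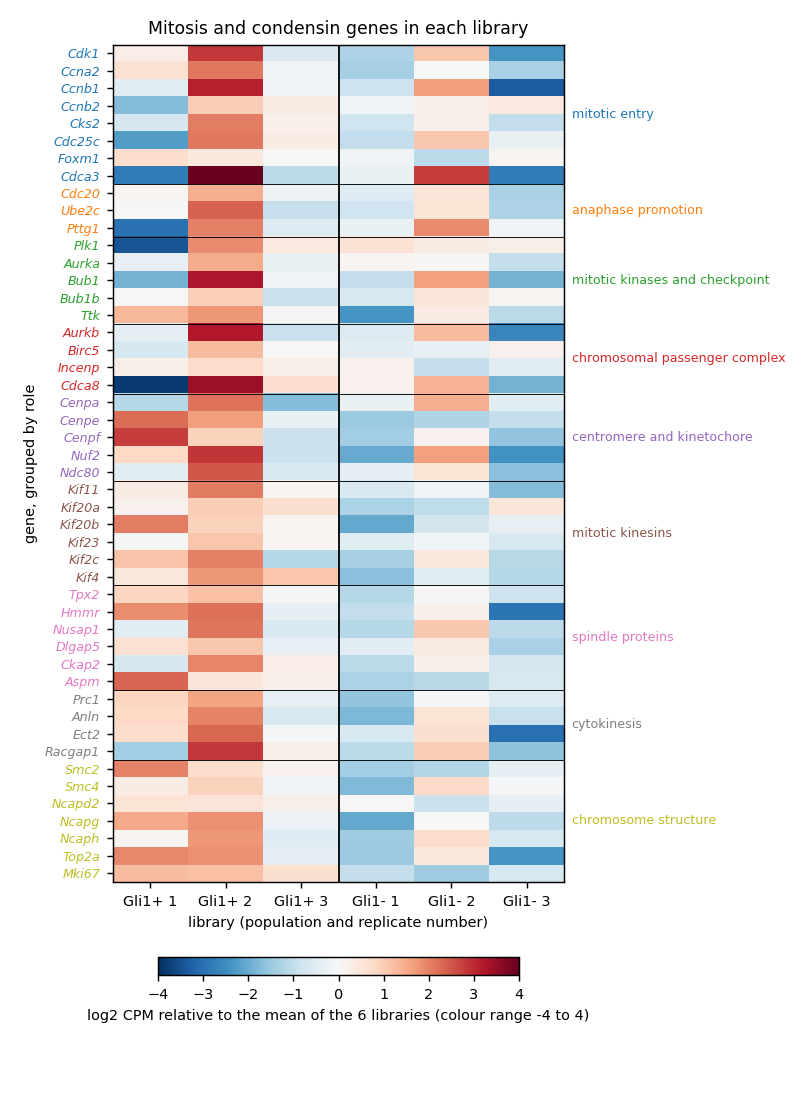
Log2 CPM of each of the 48 genes (rows, coloured and grouped by role) in each library (columns), relative to that gene's mean over the 6 libraries; red is above and blue below the mean. Gli1+ replicate 2 is the reddest column, with a median of 1.82 over the genes, Gli1- replicates 1 and 3 are the bluest (-0.97 and -0.94), and Gli1+ replicate 1 mixes deep blue with red.

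The genes of chromosome structure had the highest median of the role groups. Mki67 (ENSMUSG00000031004, chr7:135689784-135716361, minus strand, mm10), which encodes the Ki-67 protein that coats mitotic chromosomes and is the usual stain for cycling cells, was at 23.1, 22.3 and 15.2 CPM in Gli1+ replicates 1, 2 and 3 and at 4.96, 3.58 and 6.19 CPM in Gli1- replicates 1, 2 and 3. The lowest Gli1+ library lay above the highest Gli1- library. The means were 20.2 ± 4.35 and 4.91 ± 1.30 CPM (SD, n = 3 each), with a log2FC of 2.04 (SE 0.47, edgeR unadjusted p = 0.00253, adjusted p = 0.9999). Its log2FC stayed between 1.72 and 2.41 over 24 alternatives. These are mRNA levels. By protein staining the study found Ki67 in few Gli1+ cells and called most of them slow in proliferation. Separation of 3 libraries from 3 has a 2-sided exact permutation p of 0.1, the smallest that this number of libraries can give.

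Smc2 (ENSMUSG00000028312, chr4:52439243-52488260, plus strand) and Smc4 (ENSMUSG00000034349, chr3:69004738-69034623, plus strand) encode the paired ATPase arms shared by condensin I and II. Smc2 was at 21.0, 8.47 and 5.93 CPM in Gli1+ cells and 1.97, 2.25 and 4.07 CPM in Gli1- cells, with no overlap and a log2FC of 2.09 (SE 0.67, edgeR unadjusted p = 0.0138, adjusted p = 0.9999). The study picked Smc2 on these same libraries, so its direction is not independent evidence. Its partner Smc4 was at 36.1, 55.3 and 26.5 CPM in Gli1+ cells and 8.53, 49.3 and 27.4 CPM in Gli1- cells. Here the populations overlapped, Gli1- replicate 2 lying above 2 of the Gli1+ libraries, and the log2FC was 0.47 (SE 0.63). Of the non-SMC subunits of condensin I, Ncapd2 was at 13.0 to 16.4 CPM in Gli1+ cells and 6.10 to 11.1 CPM in Gli1- cells without overlap, with a log2FC of 0.82 (SE 0.46). Ncapg had a log2FC of 2.29 (SE 1.00) and Ncaph one of 0.97 (SE 0.94), both with overlap. Ncapd2 differed little in fold but also varied little, its Gli1+ SD being 1.81 CPM on a mean of 15.1.

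Top2a (ENSMUSG00000020914, chr11:98992943-99024189, minus strand), the topoisomerase that untangles sister chromatids, was at 23.4, 22.2 and 4.83 CPM in Gli1+ cells and 2.17, 8.29 and 1.11 CPM in Gli1- cells. Gli1+ replicate 3 fell below Gli1- replicate 2, so the populations overlapped. In each of the 3 replicate numbers Top2a was higher on the Gli1+ side, and its log2FC was 2.13 (SE 0.90, edgeR unadjusted p = 0.0455, adjusted p = 0.9999). Over the 7 genes of chromosome structure the median log2FC was 2.04, and 3 of 7 did not overlap (Mki67, Smc2 and Ncapd2), against 4.04% of all genes tested that lay wholly higher in Gli1+ cells.

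Kinesins, the motors that push and pull spindle microtubules, were the next group, with a median log2FC of 1.85 over 6 genes and 4 of 6 without overlap (against 4.04% of all genes). Kif4 (chrX:100625737-100727214, plus strand), a chromosome-bound motor that works with condensin, was at 1.48, 3.75 and 2.42 CPM in Gli1+ cells and 0.259, 0.729 and 0.423 CPM in Gli1- cells, a log2FC of 2.43 (SE 0.85, edgeR unadjusted p = 0.0206, adjusted p = 0.9999). Kif20b (chr19:34922361-34975745, plus strand), which acts late in cytokinesis, was at 7.04, 3.19 and 1.73 CPM and at 0.310, 0.928 and 1.27 CPM, a log2FC of 2.25 (SE 0.87, edgeR unadjusted p = 0.0319, adjusted p = 0.9999). Gli1+ replicate 1 was the highest library for Kif20b and the lowest Gli1+ library for Kif4. Kif11, the motor that drives the spindle poles apart, was at 2.75, 9.52 and 2.31 CPM against 1.40, 1.92 and 0.582 CPM, with a log2FC of 1.90 (SE 0.84). Kif23, a subunit of centralspindlin at the cell's midzone, was at 3.92, 8.29 and 4.04 CPM against 2.69, 3.51 and 2.38 CPM and had the lowest log2FC of the group, 0.92 (SE 0.60). Both were without overlap. Kif4 and Kif20a overlap tested genes on the opposite strand (Pdzd11 and Cdc23), and the strand setting of the counting is not given, so reads of the partners cannot be told apart. The same holds for Ccna2 (Exosc9), Cdc20 (Elovl1), Cdca8 (9930104L06Rik), Prc1 (Rccd1) and Ncapg (Lcorl).

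**Figure D3:**
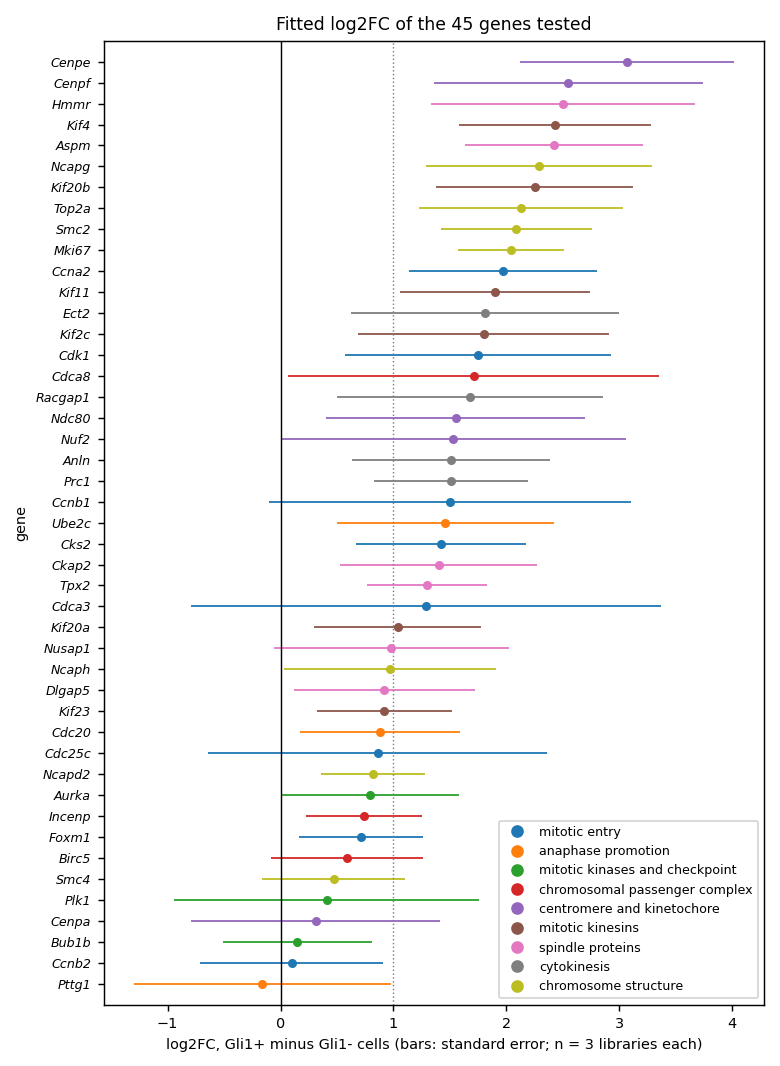
Fitted log2FC of Gli1+ minus Gli1- cells (x axis) for the 45 genes tested (y axis, ordered by value), coloured by role, with bars of 1 standard error and n = 3 libraries in each population; the solid line marks 0 and the dotted line 1. Cenpe is highest at 3.07 and Pttg1 lowest at -0.16, and short bars such as that of Mki67 (SE 0.47) contrast with long ones such as that of Cdca3 (SE 2.08).

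Among the spindle proteins, Tpx2 and Aspm passed an unadjusted p of 0.05. Tpx2 (chr2:152847964-152895321, plus strand), which activates Aurora A and seeds microtubules, was at 29.8, 37.5 and 15.5 CPM in Gli1+ cells and 7.40, 16.9 and 9.31 CPM in Gli1- cells. Only Gli1- replicate 2 reached above the lowest Gli1+ library, and the log2FC was 1.30 (SE 0.53, edgeR unadjusted p = 0.0383, adjusted p = 0.9999). Aspm (chr1:139454772-139494091, plus strand), a spindle pole protein known from microcephaly, was at 13.3, 3.56 and 2.94 CPM in Gli1+ cells and 0.983, 1.13 and 1.59 CPM in Gli1- cells, with no overlap and a log2FC of 2.42 (SE 0.79, edgeR unadjusted p = 0.0149, adjusted p = 0.9999). Gli1+ replicate 1 was far above the other Gli1+ libraries for Aspm. Without that library the log2FC of Aspm was 1.37 (edgeR unadjusted p = 0.06). Hmmr was highest of the group at a log2FC of 2.50 (SE 1.17) and Dlgap5 lowest at 0.92 (SE 0.80). In 3 of 3 pairs all 6 spindle genes were higher on the Gli1+ side, as 17.6% of all genes tested were.

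At the centromere and kinetochore the median log2FC was 1.55 over 5 genes. Cenpe (chr3:135212537-135273611, plus strand), the kinesin that brings late chromosomes to the spindle's equator, was at 4.71, 3.19 and 0.735 CPM in Gli1+ cells and 0.259, 0.332 and 0.423 CPM in Gli1- cells. Its log2FC of 3.07 (SE 0.95, edgeR unadjusted p = 0.0116, adjusted p = 0.9999) was the highest of all 45, with no overlap, on Gli1- counts of 5, 5 and 8. Its Gli1+ counts were 89, 52 and 14, so Cenpe passed the filter only through the population where it was high. A gene with such Gli1- counts could be tested only if it was higher in Gli1+ cells. Cenpf, a kinetochore protein and the longest of the 48 genes at 15433 bases, had a log2FC of 2.55 (SE 1.19). Nuf2, a subunit of the NDC80 complex that holds microtubules, was at 1.43, 6.26 and 0.368 CPM against 0.103, 2.65 and 0.0529 CPM, and its log2FC of 1.53 (SE 1.53) became -0.07 without Gli1+ replicate 2. Cenpa, the histone variant that marks centromeres, was at 1.53, 16.3 and 0.998 CPM against 2.84, 9.81 and 2.59 CPM. It was lower on the Gli1+ side in 2 of 3 pairs, and its log2FC of 0.31 (SE 1.10) turned to -0.49 with the replicate block and to -2.01 without Gli1+ replicate 2. Cenpa and Cenpe, whose products meet at the same kinetochore, thus differed in direction within replicates 1 and 3.

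The cytokinesis genes had log2FC values close together, from 1.51 to 1.81 over 4 genes, all with overlap. Prc1, which bundles the microtubules of the midzone, was at 10.7, 18.0 and 4.67 CPM in Gli1+ cells and 1.91, 5.70 and 4.13 CPM in Gli1- cells, a log2FC of 1.51 (SE 0.68). Anln, anillin of the contractile ring, was at 7.25, 16.5 and 2.57 CPM against 1.09, 5.97 and 2.17 CPM, a log2FC of 1.51 (SE 0.88). In replicate 3 both genes differed little between populations. Ect2 and Racgap1, which switch on RhoA at the furrow, had log2FC values of 1.81 (SE 1.19) and 1.68 (SE 1.18).

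Of the 8 genes of mitotic entry, 8 were above 0 with a median log2FC of 1.35, and only Ccna2 passed an unadjusted p of 0.05. Ccna2 (chr3:36564865-36572150, minus strand), cyclin A2, was at 3.86, 11.1 and 2.26 CPM in Gli1+ cells and 0.931, 2.52 and 0.952 CPM in Gli1- cells, a log2FC of 1.97 (SE 0.83, edgeR unadjusted p = 0.0449, adjusted p = 0.9999). Cdk1 (chr10:69335146-69352938, minus strand) was at 3.54, 21.3 and 1.94 CPM against 1.19, 6.30 and 0.476 CPM. Gli1+ replicate 2 and Gli1- replicate 2 were the highest library of their populations for Cdk1, and the log2FC of 1.75 had a large error without the block (SE 1.18) and a small one with it (1.77, SE 0.40). Cks2, a small subunit that binds Cdk1, was at 7.78, 51.8 and 14.2 CPM against 7.08, 14.3 and 6.19 CPM, a log2FC of 1.42 (SE 0.75). Foxm1, the transcription factor that switches on many of these genes, was at 10.2, 8.41 and 6.09 CPM against 5.48, 2.92 and 6.67 CPM, a log2FC of 0.71 (SE 0.55), and was lower in Gli1+ cells in replicate 3. Cdca3, an adaptor that marks Wee1 for destruction, was at 0, 13.6 and 0.263 CPM against 0.517, 5.17 and 0 CPM, so almost all its counts came from the replicate 2 libraries, and its log2FC of 1.29 (SE 2.08) turned to -3.78 without Gli1+ replicate 2. Ccnb2, cyclin B2, had the lowest log2FC of this group, 0.10 (SE 0.81), and was at -0.26 (SE 0.68) with the replicate block and higher in 1 of 3 pairs.

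The genes that end or police mitosis had low medians over those tested. Cdc20, the activator of the anaphase-promoting complex, was at 6.83, 18.1 and 5.46 CPM in Gli1+ cells and 4.50, 9.42 and 2.59 CPM in Gli1- cells, higher in 3 of 3 pairs with a log2FC of 0.88 (SE 0.71). Ube2c, its ubiquitin-conjugating enzyme, had a log2FC of 1.46 (SE 0.96). Pttg1, securin, which holds separase inactive until anaphase, was at 0.899, 32.9 and 5.41 CPM against 6.67, 29.7 and 7.35 CPM. Both replicate 2 libraries were high for Pttg1 and Gli1+ replicate 1 was the lowest of all, and the log2FC was -0.16 (SE 1.14). Among the kinases and checkpoint proteins, 3 of 5 were tested, with a median log2FC of 0.41. This leaves out Bub1 and Ttk, whose mean CPM was higher in Gli1+ cells (1.36 against 0.432 and 1.19 against 0.252). Aurka, Aurora A, was at 1.69, 6.26 and 1.73 CPM against 2.28, 2.25 and 1.06 CPM, a log2FC of 0.79 (SE 0.79) that was -0.13 without Gli1+ replicate 2. Bub1b, the checkpoint protein BubR1, was at 5.03, 9.70 and 2.63 CPM against 3.21, 7.03 and 5.40 CPM, a log2FC of 0.15 (SE 0.66). Plk1, Polo-like kinase 1, had 0, 72 and 28 counts in Gli1+ cells and 33, 21 and 25 counts in Gli1- cells, a log2FC of 0.41 (SE 1.35) that was -0.53 (SE 1.65) with the replicate block. For Plk1, then, the steady Gli1- libraries lay inside a Gli1+ range that ran from 0 to 4.42 CPM.

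The chromosomal passenger complex joins Aurora B to 3 partners that place it on chromosomes. Incenp, its scaffold, was at 9.68, 13.9 and 9.72 CPM in Gli1+ cells and 9.41, 4.24 and 6.19 CPM in Gli1- cells, without overlap by a narrow margin in replicate 1, and had a log2FC of 0.74 (SE 0.51). Birc5, survivin, was at 2.65, 10.8 and 4.36 CPM against 3.26, 3.51 and 5.03 CPM and was higher in Gli1+ cells only in replicate 2, with a log2FC of 0.59 (SE 0.67) that was -0.18 without Gli1+ replicate 2. Cdca8, borealin, had 0, 282 and 46 counts against 32, 61 and 6 counts, a log2FC of 1.71 (SE 1.64). Aurkb, Aurora B itself, did not pass the filter, with 8, 102 and 5 counts in Gli1+ cells and 7, 23 and 0 counts in Gli1- cells. Also left untested were the checkpoint kinases Bub1 (0, 62 and 5 counts against 2, 18 and 0) and Ttk (25, 29 and 9 counts against 0, 9 and 3). Their CPM was higher on the Gli1+ side in 3 of 3 pairs for Aurkb and Ttk and in 2 of 3 for Bub1.

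Levels between genes were compared per length, as TPM (counts per base of gene length, scaled to a fixed total) from the lengths in the table. Cks2 had the highest TPM of the 48, at 94.2 ± 58.0 in Gli1+ cells and 37.8 ± 4.06 in Gli1- cells (SD, n = 3 each). Smc4 followed at 23.9 ± 6.70 and 15.1 ± 7.88 TPM, then Pttg1 at 15.6 ± 17.4 and 18.8 ± 9.98 TPM and Tpx2 at 19.2 ± 8.66 and 6.90 ± 0.974 TPM. Mki67, with more counts than most, was at 6.78 ± 3.05 and 1.62 ± 0.819 TPM over its 10061 bases. In Gli1+ cells the mean of Pttg1 lay below the SD range of Smc4. The SD range of Pttg1 held the means of Smc4 and Tpx2, and that of Tpx2 held the means of Smc4 and Pttg1.

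The libraries were also compared within replicate numbers. All 48 genes were higher in Gli1+ cells in replicate 2, 40 of 48 in replicate 3 and 36 of 48 in replicate 1, where 51.9%, 50.9% and 45.0% of all genes tested were higher. The median log2 CPM differences were 1.59, 0.73 and 0.90 for replicates 2, 3 and 1, against 0.03, 0.02 and -0.18 over all genes. Summed over the 48 genes, the Gli1+ libraries held 293, 596 and 187 CPM (358 ± 212, SD, n = 3) and the Gli1- libraries 110, 254 and 130 CPM (165 ± 78.2, SD, n = 3). The sums overlapped between populations, since Gli1- replicate 2 stood above Gli1+ replicate 3, while the ratios within replicates were 2.67, 2.34 and 1.43. Higher in 3 of 3 pairs were 30 of the 45 genes tested (66.7%), against 17.6% of all genes, and lower in 3 of 3 were 0, against 19.8%. Without overlap and higher were 10 of 45 (22.2%, against 4.04%): Incenp, Cenpe, Kif11, Kif20b, Kif23, Kif4, Aspm, Smc2, Ncapd2 and Mki67. Of these, Cenpe entered the 45 only through its Gli1+ libraries, and Kif4 largely so, with Gli1- counts of 5, 11 and 8. Without overlap and lower were 0, against 4.45%. A gene without overlap must stay so when a library is left out, so these counts could only stay or rise. Leaving out Gli1+ replicate 2 kept the same 10 of 45 (22.2%) without overlap and higher. The matching share of all genes rose from 4.04% to 12.4%. Pttg1 and Cenpa were then without overlap and lower, against 14.9% of all genes. Leaving out Gli1- replicate 2 raised the count to 28, against 8.70%. Without Gli1- replicate 1, the library with leukocyte transcripts, the same 10 of 45 were without overlap and higher, against 6.38% of all genes.

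**Figure D4:**
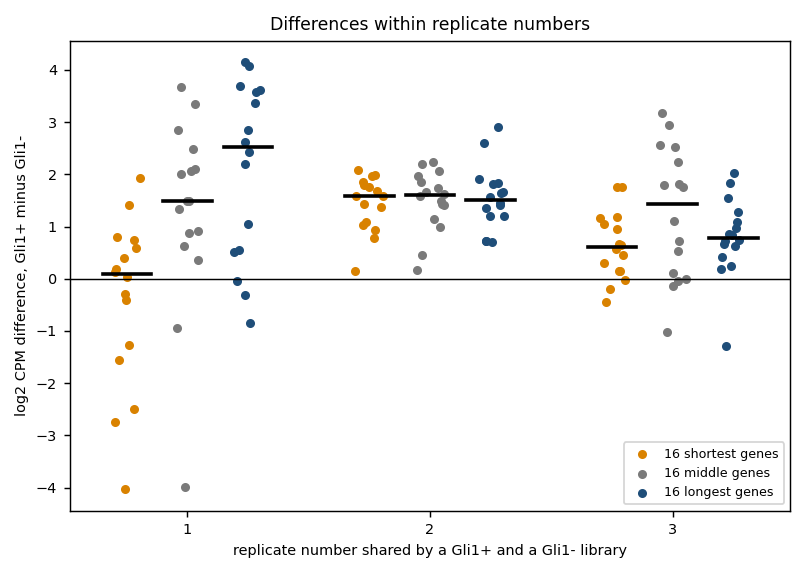
Log2 CPM difference of the Gli1+ minus the Gli1- library within each replicate number (x axis) for each of the 48 genes (points), coloured by gene length in 3 groups of 16; black lines are group medians. In replicate 1 the medians climb from 0.09 in the shortest to 1.49 and 2.52 in the longer genes, while in replicate 2 they are 1.59, 1.60 and 1.51.

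The same fit was then run on the pairs. With the replicate number as a block, edgeR called 0 of 45 genes (against 0.0% of all genes), 41 of them above 0 (Pttg1, Cenpa, Plk1 and Ccnb2 were below), with a smallest adjusted p of 0.350, that of Mki67. At an unadjusted p under 0.05 it gave 14 genes, all higher, against 3.36% of all genes higher and 5.25% lower. Mki67 had a log2FC of 2.05 (SE 0.41), Top2a 2.31 (SE 0.52), Cdk1 1.77 (SE 0.40) and Hmmr 2.83 (SE 0.69) in that fit. DESeq2's Wald test with the block called those 4 genes, against 0.777% of all genes called higher and 2.11% called lower, and gave 18 higher at an unadjusted p under 0.05, against 4.03%. DESeq2 without the block called Mki67 alone (adjusted p = 0.0394), against 0.101% in each direction. Limma-voom without the block called 0 and gave 6 higher at an unadjusted p under 0.05, against 1.17% higher and 2.02% lower. Leaving both replicate 1 libraries out of the edgeR fit with the block, an alternative chosen after seeing the data with 1 residual degree of freedom, gave 20 of 47 genes called, against 3.16% of all genes called higher and 4.67% lower, and 33 higher at an unadjusted p under 0.05, against 11.7% and 13.9%. DESeq2 on the same libraries called 12, against 1.82% higher and 3.27% lower, with 26 at an unadjusted p under 0.05, against 7.51% and 9.82%. Limma-voom with the block called 0 and gave 22 higher at an unadjusted p under 0.05, against 4.51% and 6.57%. Leaving out both replicate 2 libraries in the same way gave 0 of 40 by edgeR, which called 0 over all genes.

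The Gli1+ libraries differed in which mitotic genes were high. Gli1+ replicate 2 was the highest of the 6 libraries for 39 of the 48 genes and Gli1+ replicate 1 for the other 9, against 17.4% and 26.1% of all genes tested. Gli1+ replicate 1 had 0 counts for 5 of the 48 genes (Plk1, Cdca3, Cdca8, Cdc25c and Bub1), at a total of 18159196 counts. Bub1 was not among the genes tested, of which 9.56% were at 0 there. The mitotic genes tested were thus at 0 about as often as all genes tested. Over the whole table Gli1+ replicate 1 had counts on 15000 genes, against 20666 to 23360 in the others. In that library 3 counts correspond to 0.159 CPM, a floor that covers counting error only. The lowest count above 0 among the 48 genes there was 8 (Aurkb, 0.423 CPM), so its detection limit may be higher. For Plk1, whose 5 other libraries held 1.32 to 4.42 CPM, and for Cdca8, at 17.3 CPM in Gli1+ replicate 2, the 0 lay under the other Gli1+ libraries. Whether such a 0 marks a low level or a missed transcript was not tested.

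The levels of the genes in several libraries moved with gene length, most clearly for these genes in Gli1+ replicate 1. The 9 genes highest in that library included Cenpf (15433 bases), at 6.45 CPM against 1.72 and 0.420 CPM in Gli1+ replicates 2 and 3, and Aspm (11590 bases). Over the 48 genes, the log2 CPM of Gli1+ replicate 1 minus the mean of Gli1+ replicates 2 and 3 correlated with log2 length at r = 0.57 and rho = 0.64, and over all 14801 genes tested at r = 0.40 and rho = 0.44. Each library's own level relative to the 6-library mean correlated with length over the 48 genes at r = 0.60 in Gli1+ replicate 1, -0.20 in Gli1+ replicate 2, -0.08 in Gli1+ replicate 3, and -0.42, -0.29 and -0.16 in Gli1- replicates 1, 2 and 3. Over all genes tested, Gli1+ replicates 1 and 2 had opposite trends of like size (r = 0.37 and -0.38), and Gli1- replicate 1 had r = 0.02. These are correlations across genes that share libraries, given as a description, and the difference between libraries moves with the trends of both. The 16 shortest genes (692 to 4083 bases) summed to 43.7 CPM in Gli1+ replicate 1 and 43.8 CPM in Gli1- replicate 1, a ratio of 0.998. The 16 longest (5860 to 15433 bases) summed to 127 and 32.0 CPM, a ratio of 3.96. In replicate 2 the ratios of the same groups were 2.39 and 2.88, and in replicate 3 they were 1.41 and 1.76. The median log2FC was 0.88 in the 16 shortest, 1.73 in the 16 of middle length and 1.61 in the 16 longest, and 1.29, 1.98 and 1.58 without Gli1+ replicate 1. Without Gli1+ replicate 2 the same medians were -0.13, 0.74 and 0.86. With the trend of every library against gene length removed, the median over the 45 genes was 1.46, as before, with 10 genes higher at an unadjusted p under 0.05, against 1.96% of all genes higher and 2.72% lower. With the block as well there were 18, against 4.63% and 6.35%. The part of length in the values of single genes was not tested.

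**Figure D5:**
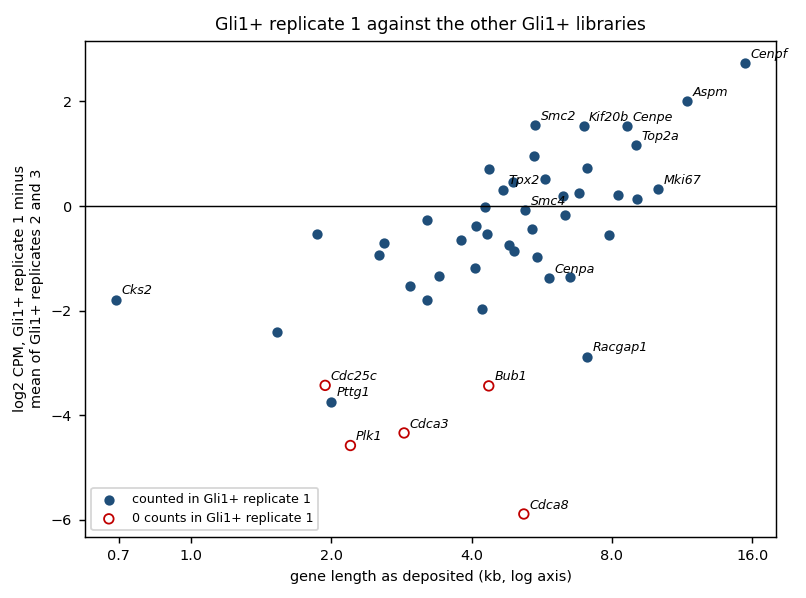
Log2 CPM of Gli1+ replicate 1 minus the mean of Gli1+ replicates 2 and 3 (y axis) against gene length in kilobases on a log axis (x axis) for the 48 genes; open red circles had 0 counts in Gli1+ replicate 1. Cenpf, the longest gene, is highest at 2.73 and Cdca8 is lowest at -5.89 (r = 0.57, rho = 0.64).

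Genes that work beside these were followed in lists of their own. Of 86 such genes 79 were tested, with 56 above 0 (50.1% of all genes were) and a median log2FC of 0.48. At an unadjusted p under 0.05 there were 2, both higher (0 called), against 1.43% of all genes higher and 2.04% lower. These were Nsl1, a kinetochore protein, at 1.32, 3.75 and 1.73 CPM in Gli1+ cells and 0.207, 0.398 and 0.0529 CPM in Gli1- cells (log2FC 3.35, SE 1.03), and Mastl, the Greatwall kinase, at 1.48, 3.56 and 0.683 CPM against 0.207, 0.663 and 0.264 CPM (log2FC 2.33, SE 1.00). Nsl1, at 25, 61 and 33 counts against 4, 6 and 1, passed the filter only through its Gli1+ libraries. Mastl, at 28, 58 and 13 counts against 4, 10 and 5, would not have passed at its Gli1- level either. Other mitotic kinesins and kinases came nearest to the 45, with 12 of 13 above 0 and a median of 1.21. Condensin II, which shares Smc2 and Smc4 but has its own 3 subunits, had lower log2FC values, with Ncapg2 at 0.95 (SE 0.55), Ncapd3 at 0.51 (SE 0.57) and Ncaph2 at -0.38 (SE 0.37). Cohesin genes had 9 of 11 above 0 and a median of 0.61, and other kinetochore and checkpoint genes 18 of 24 and 0.53. The subunits of the anaphase-promoting complex had 8 of 16 above 0 and a median of 0.00, and the DREAM and MuvB genes 7 of 12 and 0.36. The difference between these lists and the 45 genes was not tested.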

How the data were processed

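RNA from sorted Gli1+ and Gli1- cells was sequenced as poly-A libraries, 3 per population, which the study calls biological replicates. The authors deposited 1 table of raw counts per gene and library with gene lengths and coordinates. The submitters' processing notes name HISAT2 2.0.5, featureCounts 1.5.0-p3 and mm10, while the annotation release and strand setting are not given in the sources used here. Sequencing and analysis were run by a company. The 6 count columns matched the 6 libraries, and 0 columns of values were left out. Totals were 17114101 to 18602482 counts, and 3 counts were taken as the floor (0.155 to 0.199 CPM); this floor covers counting error only.

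The count table was filtered with filterByExpr (minimum count 10), scaled by TMM and fitted on all 14801 genes with edgeR 4.0.16 (quasi-likelihood test, R 4.3.3). P-values were adjusted by Benjamini-Hochberg, and genes called at |log2FC| over 1 and adjusted p under 0.05, the study's thresholds. Log2 CPM used a prior count of 2, and SEs came from the F statistics. The script was tested on simulated data. After subtracting population means, libraries sharing a number correlated at 0.223, 0.72 and 0.471 over the genes, and the study took both populations from the same mice, so replicate numbers were treated as pairs. Alternatives were other scalings and filters, DESeq2 1.42.0, limma-voom (limma 3.58.1), the replicate block and libraries left out. Further ones, chosen after seeing the data, were removal of the length trend (lowess span 0.3), limma-voom with the block, and fits with the block and a replicate number left out.

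The genes, lists and markers were chosen with earlier results of these data known. Values in every library are given for the 2 members of each role group with the highest mean CPM, for Mki67, Top2a, Cdk1, Foxm1, Smc2 and Cdca3, for members with an unadjusted p under 0.05 and for untested members. The highest and lowest log2FC of a group may also be named, and the rest that are named, such as Ncapd2, Plk1 and Cdca8, were chosen after their values were seen. Promoter windows were read from RefSeq tables. Coordinates are those of the table, and 45 of the 48 genes had the same ones in GENCODE. Figures were drawn with matplotlib 3.10.9.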

Additional observations from a re-analysis of the deposited data

How the results depend on the processing

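The count of genes called was 0 with other scalings and filters, protein-coding genes alone, limma-voom, the replicate block in edgeR, removal of the length trend, limma-voom with the block, and every library or replicate number left out. Over all genes, the fit without a filter called 267, and the other settings of this list called 0. DESeq2 called 1, DESeq2 with the replicate block 4, and, without replicate 1, edgeR with the block called 20 and DESeq2 with the block 12. The fits without replicate 1 rest on 1 residual degree of freedom. At an unadjusted p under 0.05 edgeR without the block gave 9 genes; limma-voom gave 6, library totals alone gave 14, DESeq2 14, the replicate block 14, DESeq2 with the block 18, the length trend removed with the block 18, limma-voom with the block 22, edgeR and DESeq2 with the block and without replicate 1 33 and 26, and edgeR with the block and without replicate 2 4. With libraries or numbers left out it was 2 to 15, and the median log2FC was 0.46 to 2.05. At the same cut, DESeq2 without the block gave 2.11% of all genes higher and 2.73% lower. For library totals alone and most fits on fewer libraries, no share over all genes is given beside the count. With the replicate block 41 of 45 genes were above 0 against 44, and pairing turned the sign of Cenpa (-0.49), Plk1 (-0.53) and Ccnb2 (-0.26). Cenpa was also -0.53 by limma-voom, -0.50 by DESeq2 with the block, -0.48 with the length trend removed and the block, -0.02 by limma-voom with the block, -0.10 and -0.22 by edgeR and DESeq2 with the block and without replicate 1, and -1.16 with the block and without replicate 2. Bub1b was -0.25 and -0.28 by edgeR and DESeq2 with the block and without replicate 1, and -0.23 with the block and without replicate 2, where Birc5 was -0.29. With libraries or numbers left out, log2FC values that crossed 0 ran from -2.01 to 1.19 for Cenpa, -3.78 to 4.08 for Cdca3, -2.21 to 0.88 for Pttg1, -0.13 to 1.26 for Aurka, -0.46 to 0.53 for Bub1b, -0.27 to 0.99 for Birc5 and -0.07 to 4.96 for Nuf2. The other 19 genes given in full kept a log2FC above 0 in all alternatives that gave one. The cause was not tested.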
